A study of Homo sapiens with 6 samples.

Results

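The genes described here are 7 markers of kidney tubule injury, HAVCR1, LCN2, CLU, SPP1, CD44, VCAM1 and SOX9, chosen by name among 11963 genes measured. They and the gene lists below were chosen with earlier results of these data known, so their counts beside all genes are descriptions. Every probe set that the platform annotation gives to one of these symbols was taken, 17 in all among 22215 tested, and none was left out for a low value. CD44 had 8 probe sets, CLU 3, SOX9 2 and the other genes 1 each. RNA came from HK2, a cell line immortalised from the proximal tubule of a human kidney and grown with insulin, transferrin and selenium. The cells were transfected at 30% confluence with OCRL siRNA (3 arrays) or with a non-targeting siRNA as control (3 arrays), both with Dharmafect 4, and were harvested after 96 h. The labels describe the arrays of a group as independent experiments. OCRL encodes an inositol polyphosphate 5-phosphatase of endosomes and lysosomes whose loss causes Lowe syndrome, a disorder with a leaking proximal tubule, and the comparison shows what differed in proximal tubule cells when its mRNA was lowered.

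When a tubule cell is damaged it loses features of the mature epithelium and switches on a repair programme, and the genes above are read as signs of that state in tissue or urine. HAVCR1 (also called KIM-1) is a phosphatidylserine receptor that lets an injured tubule cell engulf dying neighbours, and its outer part is shed into urine. LCN2 (NGAL) is a secreted protein that binds bacterial siderophores. CLU is a secreted chaperone, SPP1 (osteopontin) is a secreted ligand of integrins and of CD44, CD44 is the main hyaluronan receptor, VCAM1 binds the integrin of ITGA4 and ITGB1 on leukocytes, and SOX9 is a transcription factor switched on in regenerating tubule cells. VCAM1 is also known as a marker of tubule cells that fail to recover, and LCN2 and VCAM1 are textbook targets of the transcription factor NF-kB.

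LCN2 and VCAM1 are shown with the 250 bases before their start because both fell in the comparison and both promoters hold a match to the NF-kB motif. The sequences are those of RefSeq on GRCh38.p14, LCN2 at chr9:128149203-128149452 and VCAM1 at chr1:100719492-100719741, both on the plus strand, and capitals mark motif matches.
LCN2: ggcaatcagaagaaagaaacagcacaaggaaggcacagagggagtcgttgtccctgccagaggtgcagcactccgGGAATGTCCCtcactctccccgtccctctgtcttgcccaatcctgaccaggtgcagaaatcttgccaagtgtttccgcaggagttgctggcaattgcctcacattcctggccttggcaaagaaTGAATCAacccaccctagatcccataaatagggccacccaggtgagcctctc
VCAM1: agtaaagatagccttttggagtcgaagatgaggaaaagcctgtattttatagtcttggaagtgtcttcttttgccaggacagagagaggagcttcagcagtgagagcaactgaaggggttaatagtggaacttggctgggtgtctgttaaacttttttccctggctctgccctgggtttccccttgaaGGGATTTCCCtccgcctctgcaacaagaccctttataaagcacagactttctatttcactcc
The NF-kB match begins at -175 in LCN2, on the minus strand, and at -62 in VCAM1, where it reads on both strands. The second match in LCN2, at -52, is to the AP-1 motif TGANTCA. Promoters of 5 members were matched in the RefSeq table (HAVCR1, LCN2, SPP1, CD44 and VCAM1; CLU and SOX9 were not matched). An NF-kB match on either strand was found in 2 of these 5 and in 9.96% of all 35116 promoters, and an AP-1 match in 1 of 5 and in 6.57%. LCN2 and VCAM1 were already known as NF-kB targets, so these shares are a description and test nothing. The promoter sequence of HAVCR1, which also fell, held no match to either motif. That sequence, chr5:157059117-157059366 on the minus strand, lies inside the annotated gene (chr5:157029413-157069407), and no other start of HAVCR1 was searched. The motifs do not overlap each other, and a match describes the letters, not binding.

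Deposited values were log2 probe set intensities, and the array medians lay between 7.24 and 7.30. Pearson's r over probe sets was 0.998 to 0.999 within groups and 0.994 to 0.995 between them. OCRL itself was at 24.6% of the control level by its brighter probe set (log2 difference -2.02) and at 49.7% by the dimmer (-1.01), so the knockdown was partial. All knockdown cells were given the same siRNA reagent, whose other effects cannot be told apart from those of lower OCRL. Of the classical proximal tubule markers, LRP2 was at 3.81 ± 0.09 in knockdown and 3.99 ± 0.04 in control cells (SD, n = 3 each), below the lower quartile of every array (5.24 to 5.31). It was 1 of 6 among 19 measured proximal tubule genes that lay below this quartile on every array. The brightest of the 19 were SLC4A4 (9.85 in knockdown and 10.93 in control cells) and DPP4 (10.11 and 9.44), followed by MME (7.96 and 7.35). CUBN, another classical marker, lay near the quartile (5.33 in knockdown and 5.45 in control cells). Of 17 measured markers of leukocytes, endothelium, fibroblasts and other tubule segments, limma called 0. An unadjusted p under 0.05 was reached by 2 of the 17, beside 4603 of all 11963 genes. The summed intensity of the 17 markers was 861 to 888 in knockdown arrays and 868 to 952 in control arrays, and 7 lay below the lower quartile on every array. PTPRC, the pan-leukocyte marker and 1 of these 7, was at 4.09 ± 0.03 in knockdown and 4.15 ± 0.13 in control cells. The fibroblast marker COL1A1 was brighter, at 7.60 and 7.67, above the array medians. The genes of smallest p were LST1 (leukocytes), PECAM1 (endothelium), DCN (fibroblasts) and SLC12A3 (other tubule segments). LST1 was called lower under a replicate block, without OCRL siRNA replicate 3 and after median centring, and PECAM1 higher after quantile normalisation. DCN and SLC12A3 were called in none of these settings. In RNA from whole cultures, fewer cells expressing a gene and less RNA per cell cannot be told apart.

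The injury markers did not move as a block. HAVCR1, LCN2, CLU and VCAM1 fell in OCRL siRNA cells, to between 62.9% and 71.7% of control by their brightest probe sets, SOX9 rose, and SPP1 did not pass the test. CD44 was divided, with 6 of its 8 probe sets higher and the brightest not called. A probe set was called when limma, adjusted by Benjamini-Hochberg over all 22215 probe sets, gave an adjusted p under 0.05. Of the 17 probe sets, 8 were called higher and 5 lower, 13 in all, where 23.1% of all probe sets were called, 13.2% higher and 9.89% lower. The groups did not overlap in 15 of the 17, where this held for 40.7% of all probe sets. A call with at least 1.5-fold was reached by 7 of the 17, against 3.63% of all probe sets. At 1 probe set per gene, the brightest, 1 member rose and 4 fell, against 26.0% of all genes called, 15.5% higher and 10.5% lower, and the groups did not overlap in 7 of 7, against 44.9% of all genes. The median log2 difference of the 7 was -0.48, and that of all genes 0.00050. Probe sets of 1 gene share their target, so the 8 of CD44 are not separate observations. Because the members were chosen with earlier results of these data known, these shares describe the set and do not test it. At 3 arrays against 3 the exact two-sided permutation test cannot go below 0.10, and it gave 0.10 for each of the 15 probe sets without overlap.

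**Figure D1:**
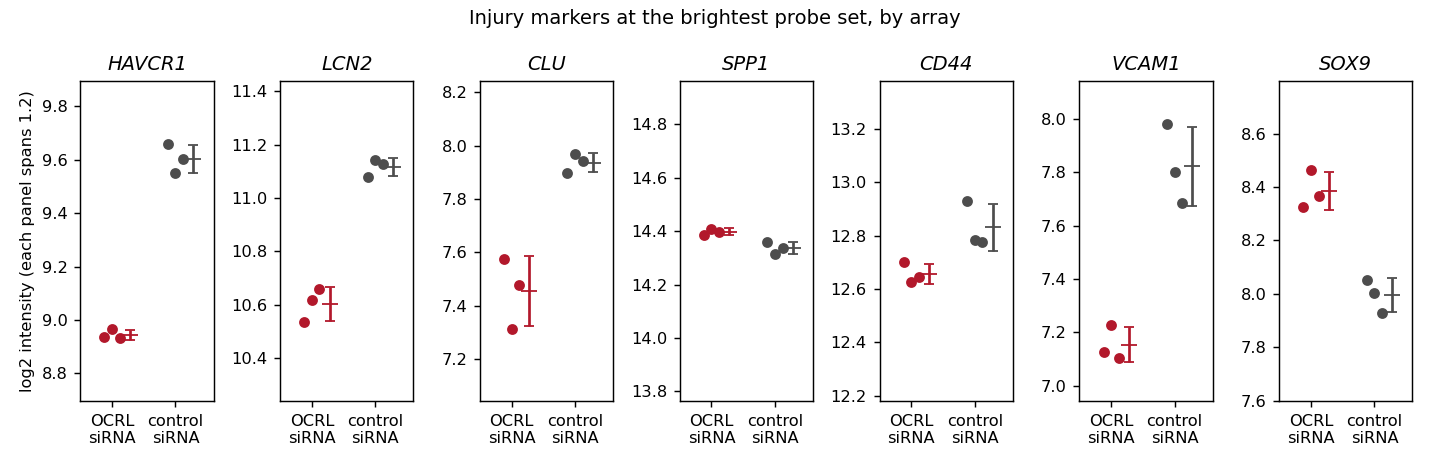
Log2 intensity of each injury marker at its brightest probe set, with 3 OCRL siRNA arrays (red) left of 3 control siRNA arrays (grey), and mean ± SD beside the points. Each panel spans 1.2 log2 units, and the panels have different levels. HAVCR1, LCN2, CLU and VCAM1 are lower in OCRL siRNA cells, SOX9 is higher, and SPP1 and CD44 differ by 0.061 and -0.17.

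HAVCR1 stood at 8.94, 8.97 and 8.93 on the OCRL siRNA arrays and at 9.66, 9.55 and 9.60 on the control arrays (log2 intensity). The gap between the groups was several times the spread inside either of them. Its mean was 8.94 ± 0.018 in knockdown and 9.60 ± 0.054 in control cells (SD, n = 3 each), a 1.58-fold fall (log2 difference -0.66, SE 0.046, 95% interval -0.77 to -0.55, limma adjusted p = 1.76e-04). Its probe set outranked 68.5% to 76.1% of the probe sets of an array.

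LCN2 stood at 10.54, 10.62 and 10.66 in OCRL siRNA cells and at 11.08, 11.14 and 11.13 in control cells. All 3 knockdown arrays were below all 3 control arrays. The mean was 10.60 ± 0.063 in knockdown and 11.12 ± 0.034 in control cells, a 1.43-fold fall (log2 difference -0.51, SE 0.050, 95% interval -0.63 to -0.39, adjusted p = 6.47e-04). Its probe set lay above 84.2% to 89.2% of probe sets. The genes that handle the LCN2 protein did not pass by limma, 0 of 3. An unadjusted p under 0.05 was reached by 1 of these 3, beside 4603 of all 11963 genes. The endocytic receptor LRP2 had a log2 difference of -0.18 (adjusted p = 0.0681), at the dim level given above, and was called lower in 2 of 9 other settings (median centring, quantile normalisation, a replicate block and the omission of single arrays), namely without OCRL siRNA replicate 3 and after median centring, with an adjusted p of 0.0372 to 0.179 over the 9.

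CLU was read by 3 probe sets. The brightest, 208792_s_at, stood at 7.57, 7.31 and 7.48 in OCRL siRNA cells and at 7.90, 7.97 and 7.94 in control cells, a fall by 0.48 (SE 0.071, adjusted p = 0.00371). The second, 208791_at, stood at 7.38, 7.30 and 7.35 in OCRL siRNA cells and at 7.87, 7.81 and 7.85 in control cells, a fall by 0.50 (SE 0.044, adjusted p = 4.40e-04). These 2 probe sets gave nearly the same fall, and the gap between them differed by -0.021 between groups, less than its spread between arrays (exact permutation p = 0.80). The dimmest of the CLU probe sets, 222043_at, stood at 5.37, 5.69 and 5.81 in OCRL siRNA and at 5.85, 5.65 and 5.69 in control cells. Its groups overlapped, and its log2 difference was -0.11 (95% interval -0.39 to 0.17, adjusted p = 0.577), turning to 0.019 without OCRL siRNA replicate 1.

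The probe set of SPP1 was among the brightest of each array, above 99.4% to 99.5% of all probe sets. It stood at 14.38, 14.41 and 14.40 in OCRL siRNA cells and at 14.36, 14.31 and 14.34 in control cells. The groups did not overlap, but the log2 difference was 0.061 (SE 0.040, 95% interval -0.034 to 0.16) and was not called (adjusted p = 0.340). The interval allows a change of SPP1 between a small fall and a rise by 0.16 on the log2 scale. The brightest probe sets of an array reached 15.04 to 15.08, and how far the range of the scanner limits a difference at this level was not tested. With trend and robust variance settings SPP1 was called higher (adjusted p = 0.0444).

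VCAM1 stood at 7.13, 7.23 and 7.10 in OCRL siRNA cells and at 7.98, 7.80 and 7.69 in control cells. The control arrays were more spread than the knockdown arrays, and the groups did not overlap. The mean was 7.15 ± 0.066 in knockdown and 7.82 ± 0.148 in control cells, a 1.59-fold fall (log2 difference -0.67, SE 0.081, 95% interval -0.86 to -0.48, adjusted p = 0.00158). Its probe set lay near the middle of the arrays, above 48.1% to 58.0% of probe sets.

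SOX9 rose by both of its probe sets. The brighter, 202936_s_at, stood at 8.33, 8.47 and 8.37 in OCRL siRNA cells and at 8.05, 8.003 and 7.93 in control cells, a 1.31-fold rise (log2 difference 0.39, SE 0.057, adjusted p = 0.00340). The dimmer, 202935_s_at, stood at 7.33, 7.37 and 7.52 in OCRL siRNA cells and at 6.87, 6.58 and 6.60 in control cells, a 1.65-fold rise (0.72, SE 0.093, adjusted p = 0.00202). The gap between the probe sets was narrower in knockdown cells, by 0.33, with no overlap between groups (exact permutation p = 0.10, adjusted p = 0.125 over 10 such comparisons). SOX9 went in the opposite direction to HAVCR1, LCN2, CLU and VCAM1 on the same arrays.

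**Figure D2:**
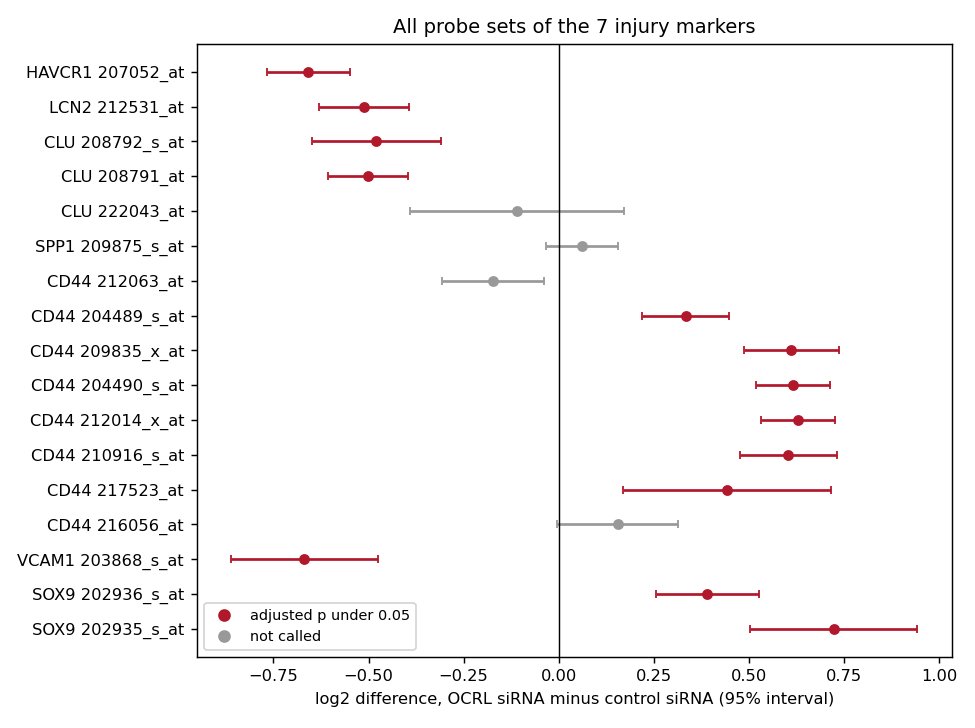
Log2 difference, OCRL siRNA minus control siRNA, for all 17 probe sets, with 95% intervals from limma. Red marks an adjusted p under 0.05 and grey the 4 probe sets not called. HAVCR1, LCN2, VCAM1 and all 3 CLU probe sets lie left of 0, with 2 of the 3 CLU probe sets called, and both SOX9 and 7 of 8 CD44 probe sets lie right of it, with 6 of the CD44 probe sets called.

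CD44 gave a different answer by probe set. The brightest, 212063_at, stood at 12.70, 12.63 and 12.65 in OCRL siRNA cells and at 12.93, 12.78 and 12.78 in control cells. Its log2 difference was -0.17 (SE 0.056, 95% interval -0.31 to -0.04), which did not pass (adjusted p = 0.0713), although the groups did not overlap. It was called lower after median centring, with trend and robust settings and with dim probe sets left out (adjusted p = 0.0359, 0.00487 and 0.0196).

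Most other CD44 probe sets moved up. Probe set 204490_s_at stood at 12.06, 12.07 and 12.06 in OCRL siRNA cells and at 11.41, 11.45 and 11.47 in control cells, a 1.53-fold rise (log2 difference 0.62, SE 0.041, adjusted p = 1.55e-04). Probe set 212014_x_at stood at 12.07, 12.09 and 12.04 in OCRL siRNA cells and at 11.42, 11.44 and 11.46 in control cells, a 1.55-fold rise (0.63, SE 0.041, adjusted p = 1.40e-04). The differences of 209835_x_at and 210916_s_at were alike, at 0.61 (SE 0.052) and 0.60 (SE 0.054). Probe set 204489_s_at rose less, by 0.33 (SE 0.048, adjusted p = 0.00340). The dim 217523_at rose by 0.44 (SE 0.115, adjusted p = 0.0338), a call lost without OCRL siRNA replicate 1 or 2 and without control replicate 2 or 3 (adjusted p of 0.0981 to 0.0996). The dimmest, 216056_at, stood at 4.24, 4.39 and 4.31 in OCRL siRNA cells and at 4.27, 4.11 and 4.09 in control cells, overlapped and was not called (0.16, adjusted p = 0.152), but was called higher without control replicate 1 (0.0478) and with array weights (0.0389).

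The split within CD44 was also seen array by array. The median of the 7 other probe sets minus the brightest was -0.64, -0.59 and -0.61 in OCRL siRNA cells and -1.52, -1.35 and -1.32 in control cells, a narrowing by 0.78 with no overlap between groups (exact two-sided permutation p = 0.10, the smallest possible). Each of the 7 narrowed against the brightest, by 0.33 to 0.80, again without overlap and with adjusted p of 0.125. The part of the CD44 transcript that each probe set reads was not analysed here, and CD44 has many splice forms. Because the probe sets changed unequally, no single fold change is given here for CD44 as a gene, and the reason for the unequal change was not tested.

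**Figure D3:**
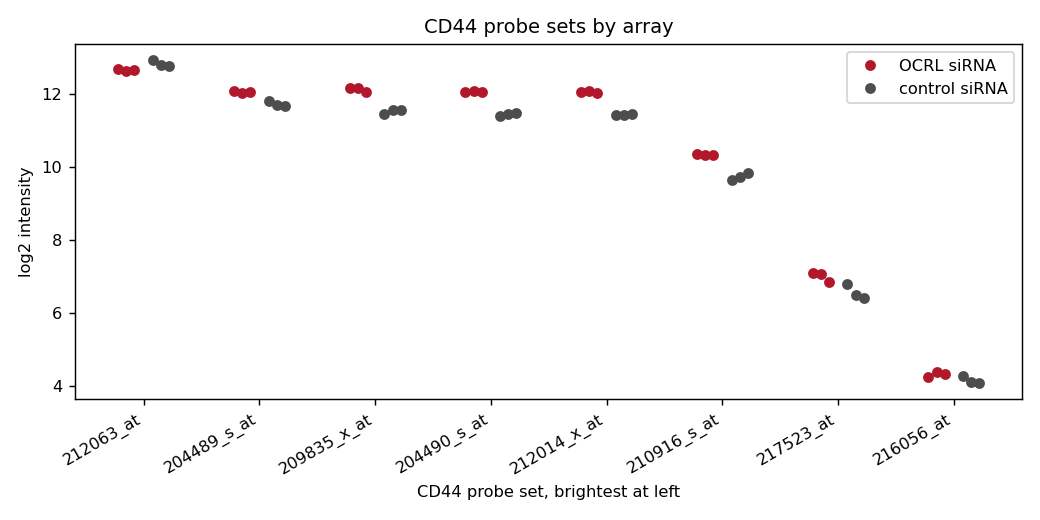
Log2 intensity of the 8 CD44 probe sets, brightest at left, with 3 OCRL siRNA arrays (red) left of 3 control siRNA arrays (grey) in each. The brightest probe set is lower in OCRL siRNA cells, the next 6 are higher, and the dimmest overlaps.

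By the size of the change, the order from most negative to most positive at the brightest probe set was VCAM1, HAVCR1, LCN2, CLU, CD44, SPP1 and SOX9. VCAM1 and HAVCR1 were 0.010 apart and LCN2 and CLU 0.031 apart, less than the SE of either member of the pair, so these neighbours are not told apart. The 95% interval of SOX9 (0.26 to 0.53) lay above those of CD44 and SPP1, given above, and differences between genes were not tested. Between arrays of 1 group the SD of the 7 brightest probe sets was lowest for SPP1 (0.013) and highest for VCAM1 (0.148).

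Other genes known from injured or repairing tubules were more often lower than higher. Among the 40 with a named probe set 12 fell, 4 rose and 24 were not called, with a median log2 difference of -0.077, beside 15.5% higher and 10.5% lower and a median of 0.00050 over all genes. This list too was chosen with earlier results of these data known. CDH6, a cadherin of the developing proximal tubule, was at 11.21 ± 0.02 in knockdown and 12.26 ± 0.02 in control cells (log2 difference -1.04). TGFB2, a fibrogenic growth factor, fell by 1.35 (SE 0.062) and HBEGF, an EGF receptor ligand released after injury, by 0.94 (SE 0.050). Of their other probe sets, CDH6 had 2 of 4 and HBEGF 1 of 2 called lower, and 0 higher. ANXA3, a calcium-dependent membrane-binding protein, fell by 0.77 (SE 0.042). Of the 4 that rose, GDF15 is a stress cytokine (log2 difference 0.94), TIMP2 an inhibitor of metalloproteinases and a urinary marker of kidney stress (0.54), PLAUR the urokinase receptor (0.35) and ITGB8 an integrin chain (0.30), named because they are the whole group. The call of ITGB8 was lost in 7 of 9 other settings. Under those settings 3 to 4 of the 40 genes were higher and 10 to 14 lower.

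Partners of the members were called in both directions, and the counts of the lists below are to be read beside the 15.5% of all genes called higher and the 10.5% called lower. Of 15 hyaluronan enzymes and membrane linkers around CD44, 3 rose and 4 fell (median -0.041), with 2 lower without OCRL siRNA replicate 2 or 3 or control replicate 2. The cell surface hyaluronidase CEMIP2 was at 10.75 ± 0.04 in knockdown and 9.97 ± 0.09 in control cells (log2 difference 0.78, adjusted p = 2.37e-04), and the CD44-cleaving protease MMP14 rose by 0.30 (SE 0.054). The sheddase ADAM10 fell by 0.36 (SE 0.044), by all 3 of its probe sets, and NF2 (merlin), which binds the CD44 tail, fell by 0.67 (SE 0.043) by its brightest, while 1 of its 6 others was called lower and 0 higher. Of 10 integrin chains that bind osteopontin or VCAM1, 4 rose and 1 fell (median -0.012). Only 2 were higher without OCRL siRNA replicate 1 or 2 or control replicate 2 and under the replicate block, and the lower call, that of ITGAV (log2 difference -0.14, adjusted p = 0.0466), was absent in each of these and whenever any other array was left out. ITGA5 rose by 0.36 (SE 0.057) and ITGB5, which pairs with ITGAV to bind osteopontin, by 0.23 (SE 0.045). Of the 3 other ITGB5 probe sets 1 was called higher and 0 lower. ITGA4, the VCAM1-binding chain, had a log2 difference of 0.27 (adjusted p = 0.0205), a call lost in 5 of 9 other settings (highest adjusted p 0.0683), while its remaining 2 probe sets were both higher by the same test.

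Of 20 measured genes of the NF-kB list, 8 had an unadjusted p under 0.05 by limma, beside 4603 of all 11963 genes. The list median was 0.051. Of the 20, 4 rose, 0 fell and 16 did not pass, beside 15.5% higher and 10.5% lower over all genes. The counts moved with the setting, in that 2 were higher without control replicate 2 or 3 or any 1 of the OCRL siRNA arrays, and 1 was lower without control replicate 1 or 3 and after quantile normalisation. The transcription factor CEBPD, an acute-phase regulator, was at 12.41 ± 0.04 in knockdown and 12.08 ± 0.01 in control cells (log2 difference 0.33, adjusted p = 0.00207), and the interleukin-1 receptor IL1R1 rose by 0.55 (SE 0.093). The single other probe set of each of these was not called. TNFAIP2 (0.22) and the kinase IKBKB (0.25) were called higher but lost the call in 6 and 7 of 9 other settings, among them median centring, after which 2 genes of the list were higher and 2 lower. ICAM1, an adhesion molecule induced beside VCAM1 by NF-kB, was at 9.69 ± 0.02 in knockdown and 9.67 ± 0.01 in control cells (adjusted p = 0.878). It is 1 of the 16 that did not pass, was picked after its value was seen, and does not stand for the list.

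Of 17 genes of phosphatidylserine recognition and engulfment, the function of HAVCR1, 1 rose and 2 fell (median -0.069). The receptor kinase AXL fell by 0.29 (SE 0.040), and its relative MERTK rose by 0.28 (SE 0.058), a call lost without control replicate 3 (adjusted p = 0.0529). The 2 other probe sets of MERTK were not called. ADAM10, given above, belongs to this list too. After quantile normalisation or median centring 1 was higher and 4 lower.

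Around SOX9, 3 of 19 other SOX and Notch genes rose and 3 fell (median -0.076). The Notch ligand JAG1 was at 13.38 ± 0.02 in knockdown and 13.88 ± 0.04 in control cells (log2 difference -0.50, adjusted p = 3.92e-04), and SOX4, a factor of progenitor cells, fell by 0.28 (SE 0.047). The Notch targets HES1 (0.42, SE 0.045) and HEY1 (0.53, SE 0.069) rose. Of their other probe sets, JAG1 had 2 of 3 and SOX4 1 of 4 called lower, and HES1 had 1 of 2 called higher. Of 13 heat shock genes, the chaperone class to which CLU is related in function, 1 rose and 1 fell (median -0.0048). CRYAB rose by 0.34 (SE 0.052), and HSP90AB1 fell by 0.21 (SE 0.050), with the call lost in 4 of 9 other settings.

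Proximal tubule genes, which are lost in injury, were called in both directions, 4 of 19 higher and 2 of 19 lower (median -0.039), near the 15.5% and 10.5% of all genes, so the count does not set the list apart. The lower count was 1 without OCRL siRNA replicate 1 or 2 or control replicate 2 or 3. The bicarbonate cotransporter SLC4A4 fell by 1.08 (SE 0.046). Peptidases of the brush border rose, DPP4 by 0.68 (SE 0.053) and MME by 0.61 (SE 0.056). ANPEP, another such peptidase, was called higher (log2 difference 0.56, limma adjusted p = 0.0222) at a dim level (4.80 in knockdown and 4.24 in control cells). SLC3A1, a chain of the cystine transporter, rose by 0.41 (SE 0.077). The 1 other probe set of SLC3A1 was not called. SLC7A9, the other chain of that transporter, was called lower (log2 difference -0.38, limma adjusted p = 0.0274) at a dim level (4.36 in knockdown and 4.73 in control cells). Of the 19, 6 lay below the lower quartile on every array, so these were dim in both groups.

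**Figure D4:**
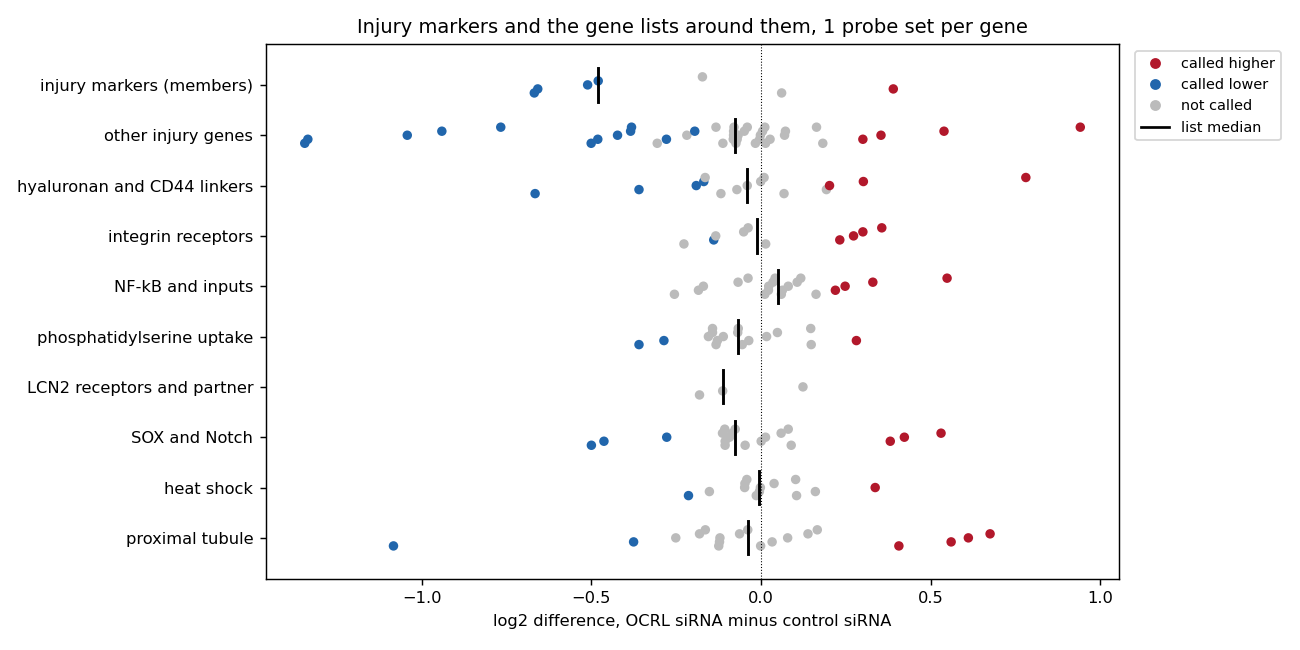
Log2 difference, OCRL siRNA minus control siRNA, of each measured gene of 10 lists at its brightest probe set, with 1 point per gene. Red points were called higher, blue points lower and grey points not called, and the black bar is the list median, -0.48 for the 7 injury markers and between -0.11 and 0.051 for the other lists. Points are shifted up and down only to part them.

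The genes closest in pattern to each member were found by the Euclidean distance of mean-centred log2 values over the 6 arrays, which is a description. They were NFIB and PDSS2 for HAVCR1 (distances 0.057 and 0.064), COG5 and ZNHIT6 for LCN2 (both 0.046), NIPAL3 and SOX11 for CLU (0.099 and 0.113), and FUT4 and PBLD for VCAM1 (0.094 and 0.136). For SPP1 they were SMIM8 and DVL3 (0.022 and 0.023), for CD44 PRPF38B and CMTR1 (0.028 and 0.029), and for SOX9 NREP and POLQ (0.050 and 0.051). None of these nearest genes was itself one of the 7 markers.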

How the data were processed

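Biotin-labelled RNA was hybridised to Affymetrix GeneChips, 1 array per sample, per the labels' protocols. The authors deposited log2 intensities per probe set. The submitters' processing notes name affy and RMA; their versions were not given in the sources used here. RMA removes a change shared by most genes and compresses differences of dim probe sets. With 3 arrays per group, the number of arrays limits the precision.

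Of 22277 probe sets, 62 controls were left out. Genes were named from the platform annotation, with symbols checked through Entrez identifiers (0 changed): 19064 probe sets had 1 symbol, 1043 several and were not named, and 2108 none. A gene was represented by its brightest probe set over all 6 arrays. The comparison used limma 3.58.1 (lmFit, eBayes, group only, two-sided; R 4.3.3), adjusted over all probe sets at 0.05. SE is the moderated standard error. Single values were also compared by the exact permutation test over 20 assignments of the arrays. The fit was tested on simulated data, in which far fewer probe sets were changed than were called here. It recovered 36% of 1.25-fold, 74.2% of 1.5-fold and 93.2% of 2-fold changes, and 3.85% of its calls were false. Small changes can therefore be missed. The alternatives were a replicate block, each array left out, quantile normalisation, median centring, trend and robust settings, array weights, a filter on dim or _s_at and _x_at probe sets, a 1.5-fold minimum and the mean over probe sets. Plots were made in matplotlib 3.10.9 (Python 3.11.15).

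The members and lists were chosen with earlier results of these data known. Named were all member probe sets, OCRL, up to 4 called genes of smallest p per list (or the 1 of smallest p where none was called) and the 2 genes nearest in pattern to each member. ICAM1, GDF15, TIMP2, PLAUR, ITGAV, SLC7A9, ANPEP, CUBN, COL1A1 and PTPRC were chosen after their values were seen. The lists share LRP2, ADAM10, ICAM1 and ITGB8.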

Additional observations from a re-analysis of the deposited data

How the results depend on the processing

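HAVCR1, LCN2, CLU, VCAM1 and SOX9 kept their direction and their call in every tested alternative that gave an adjusted p. Leaving out 1 array gave log2 differences of -0.69 to -0.63 for HAVCR1, -0.54 to -0.48 for LCN2, -0.54 to -0.41 for CLU, -0.74 to -0.59 for VCAM1, 0.35 to 0.42 for SOX9, 0.050 to 0.072 for SPP1 and -0.20 to -0.12 for CD44, and 7 to 9 members' probe sets higher with 5 lower. Over all probe sets it gave 2108 to 2735 higher and 1468 to 2163 lower. The gap within CD44, whose alternatives were added after seeing the data, as were those of the lists, ran from 0.72 to 0.82. With the mean of all probe sets of a gene, CD44 turned to 0.40, because 7 of its 8 probe sets are above 0, CLU moved to -0.36 and SOX9 to 0.56. CD44 was called lower after median centring (-0.22) and, at -0.17, with trend and robust settings and with dim probe sets left out. SPP1, at 0.061, was called with trend and robust settings. The replicate block gave the same counts for the members (8 higher, 5 lower), an adjusted p of 0.0661 for CD44 and 0.407 for SPP1, and 2561 higher and 2010 lower over all probe sets. Same-numbered arrays had correlations of deviations of 0.14, 0.12 and -0.0095, and arrays with unlike numbers -0.18 to 0.096. OCRL siRNA replicates 1 and 2 each correlated best with the control of the same number, and replicate 3 with control replicate 1 (0.040). Whether same-numbered arrays share a day or batch was not tested. Without probe sets ending in _s_at or _x_at, 1274 probe sets were higher and 1074 lower, of which 1 and 3 were members', with fewer probe sets tested, and VCAM1, SPP1 and SOX9 had none left. Demanding 1.5-fold left 477 higher and 329 lower, of which 5 and 2 were members'. Median centring moved the share of called probe sets that were higher to 42.0%, against 57.2% as deposited and 52.2% after quantile normalisation, and the median log2 difference of all probe sets to -0.053. The 5 called members kept their direction under both. The dimmest CLU probe set, 222043_at, turned to 0.019 without OCRL siRNA replicate 1. Dim probe sets, such as those of LRP2 and 222043_at, limit what can be said of low genes.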
